A study of Gossypium hirsutum with 16 samples.

Results

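The 150 most abundant transcripts of the cotton shoot apex are described here, out of 70422 gene IDs with a deposited expression value. They were chosen by ranking every ID on its lowest FPKM (fragments per kilobase of gene, scaled to the mapped fragments of the library) over 16 libraries and taking the highest 150, so each of them was abundant in every library. The ranking values ran from 1832 FPKM down to 112 FPKM, and the members made up 0.213% of all IDs. Because the rule asks for a high value everywhere, a gene that was abundant in only some groups could not enter, and large rises from a low level and large falls to one were both kept out by construction.

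In plants, the most abundant messenger RNAs of growing shoot tips commonly encode parts of the ribosome, translation elongation factors, histones, cytoskeletal proteins and, where leaf primordia are included, proteins of photosynthesis. Upland cotton (Gossypium hirsutum) is an allotetraploid that carries an A and a D subgenome from different ancestors, so many genes exist as an A copy and a D copy, called homoeologs, on chromosomes of the same number. None of the 70422 IDs matched a name in a table of 99454 RefSeq genes (assembly Gossypium_hirsutum_v2.1). The members are therefore given by ID, with the chromosome that the ID names, and no function is assigned to any of them.

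The libraries are of messenger RNA from seedling shoot apices, in 4 groups of 4. Strain 3798 is of the nulliplex-branch type, whose flowers arise directly at the main stem, and the strain called JX here, Jinxian-short branch, bears short fruiting branches. Each strain was sampled as a control and after virus-induced silencing of GhBRC1, a method in which a virus carrying a gene fragment directs the plant's RNA interference against that gene. BRC1 is a TCP-family transcription factor that restrains axillary bud growth in other plants. What the controls received is not in the labels, and neither is the origin of the 4 libraries in each group. If they do not stem from different plants, the p-values reflect technical spread alone. GhBRC1 was not measured here, since its ID is unknown, and defining markers of the apex could not be looked up, so the tissue and silencing labels are used unchecked. In whole apices, fewer cells of a type and less RNA per cell cannot be told apart.

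Total FPKM per library ran from 552185 to 603167, and a rough estimate of depth relative to 3798 control 1 from 0.909 to 1.33. Absolute depth is unknown. Libraries that stood apart over the members were 3798 control 3, 3798 silenced 4 and JX silenced 4. The median absolute log2 difference over the 150 members was 0.258 from 3798 control 3 to the other 3798 controls on average and 0.244 to the JX controls, while the other 3 libraries of that group lay 0.409 to 0.432 from the JX controls. JX silenced 4 lay 0.224 from the JX controls and 0.235 from the other JX silenced libraries. For 3798 silenced 4 the distance was 0.222 to the other libraries of its group and 0.200 to the JX silenced libraries. JX silenced 3 also lay slightly nearer to the 3798 silenced libraries (0.180) than to its own group (0.186). The former 3 were set apart with earlier results of these data known. Counts of members called are also given without these libraries. Since the libraries were set apart for lying far from their group, leaving them out can raise such counts by construction.

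The 2 highest IDs were both on A chromosomes. Gh_A04G101700, on chromosome A04, was at 3032, 2307, 2609 and 2467 FPKM in 3798 controls 1 to 4, at 2672, 2342, 2446 and 1999 FPKM in 3798 silenced 1 to 4, at 1832, 2536, 2002 and 2357 FPKM in JX controls 1 to 4 and at 2193, 2355, 2105 and 2184 FPKM in JX silenced 1 to 4. All 4 groups overlapped, and it never ranked below 3 in any library. Gh_A10G150000, on chromosome A10, had means of 2343 ± 251 FPKM in 3798 controls, 2619 ± 401 FPKM in 3798 silenced, 1831 ± 165 FPKM in JX controls and 2019 ± 249 FPKM in JX silenced libraries (SD, n = 4 for each). It also stayed among the first 3 IDs of every library. The JX controls of Gh_A10G150000, at 1619 to 1993 FPKM, lay below the 3798 controls, at 2087 to 2658 FPKM. In none of the comparisons below did either of them pass the threshold, with log2 differences between -0.37 and 0.17 and limma adjusted p from 0.059 to 0.97.

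Of the other 8 of the 10 highest members, some varied more between groups and some less. Gh_D10G123300, on chromosome D10, was the highest ID of all in 3798 controls 1, 2 and 4, at 3207, 3615 and 2803 FPKM, and read 1105 to 1282 FPKM in the JX silenced libraries. Gh_A11G322400, on chromosome A11, ranged from 729 FPKM in JX control 1 to 2486 FPKM in JX silenced 4, where it was the highest ID. Gh_A06G142900, on chromosome A06, ranged from 659 FPKM in JX control 1 to 2160.0 FPKM in 3798 control 1. These 3 spanned 3.27-fold, 3.41-fold and 3.28-fold over the 16 libraries. Gh_D01G210100, Gh_A01G183900, Gh_A02G158200, Gh_D10G123500 and Gh_A07G194200 spanned between 1.52-fold and 2.26-fold, with lowest values from 578 to 693 FPKM. Of these 10 IDs 7 were on A chromosomes and 3 on D chromosomes.

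**Figure D1:**
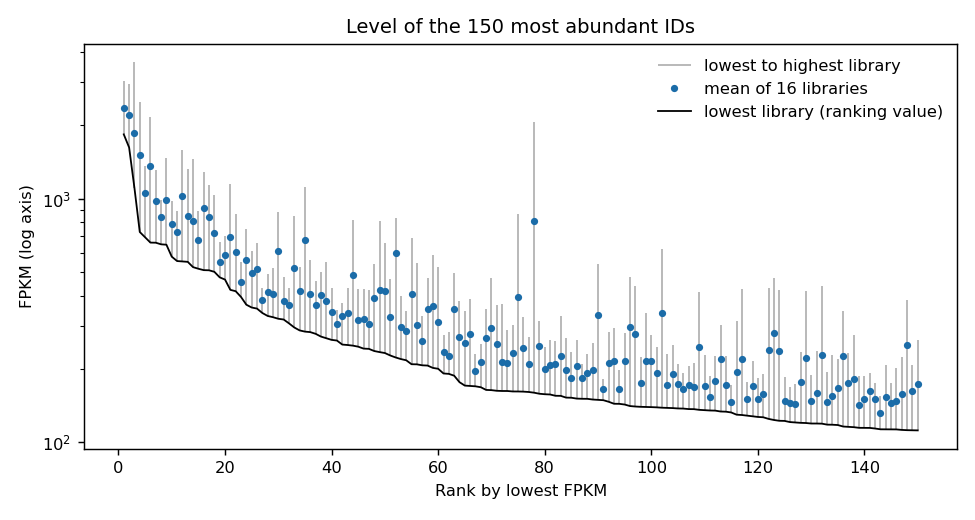
FPKM on a log axis against rank by lowest FPKM for the 150 members. The black line is the lowest library, which set the rank, the points are means of 16 libraries and the grey lines run from the lowest to the highest library. The ranking value falls from 1832 to 112 FPKM, and the long grey line at rank 78 is Gh_A05G280600, which spans 12.9-fold.

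Most members lay well below these levels. Mean FPKM over the 16 libraries had a median of 250 and a range of 132 to 2340, with 7 members at or above 1000 FPKM and 121 below 500 FPKM. At the border, Gh_A01G255800 and Gh_D13G162100 were the last members, with lowest values of 112.1 and 112.0 FPKM. The first IDs outside were Gh_D10G153500 and Gh_D07G045900, with lowest values of 111.8 and 111.3 FPKM, so the border separates no distinct class. Without 1 library in turn, between 140 and 150 of the members were chosen again, the fewest without JX control 1.

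Ranking by lowest value and ranking by mean shared 111 of 150 IDs. The 2 IDs with the highest mean among the 39 left out were Gh_A10G166600 and Gh_Contig00768G000400. Gh_A10G166600 had a mean of 438 FPKM, with 306 to 852 FPKM in the 3798 controls and 88.9 to 153 FPKM in the JX controls, which did not overlap. Gh_Contig00768G000400 had a mean of 408 FPKM and lay at 103 FPKM in JX control 1, against 253 to 540 FPKM in the other JX controls. In any single library, between 94 and 112 of the members were among that library's own 150 highest IDs, and 62 were so in all 16.

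Together the 150 members held 9.39% to 11% of a library's total FPKM. The share was 11%, 10.3%, 9.92% and 10.5% in 3798 controls 1 to 4, and 10.9%, 10.1%, 10.4% and 9.90% in 3798 silenced 1 to 4. It was 9.39%, 9.84%, 9.64% and 9.61% in JX controls 1 to 4, and 9.73%, 9.66%, 9.71% and 9.84% in JX silenced 1 to 4. Every 3798 library therefore lay above every JX library, but this full separation rested on Gh_A05G280600, the most variable member. Without it 3798 silenced 2 (9.811%) and 3798 silenced 4 (9.766%) lay below JX control 2 (9.813%). With all 150 members the mean was 10.4% ± 0.449 for 3798 controls, 10.3% ± 0.425 for 3798 silenced, 9.62% ± 0.186 for JX controls and 9.74% ± 0.0773 for JX silenced libraries (SD, n = 4). These shares are a description of a chosen list and carry no test. The 10 highest members held 2.48% to 3.12% in 3798 controls, 2.23% to 2.88% in 3798 silenced, 2.03% to 2.20% in JX controls and 2.20% to 2.37% in JX silenced libraries. Their mean share was 2.82% in 3798 controls and 2.09% in JX controls. Most of the difference between the control means therefore lay in these 10 members, and it is not a trait of the whole list. For comparison, 4681 to 5370 IDs were needed to reach 50% of the total in a library.

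Members of the A subgenome numbered 71 and those of the D subgenome 76, or 47.3% and 50.7% of the members against 42.7% and 44.2% of all IDs. Among IDs at ranks 151 to 1500 the shares were 47.2% and 49.7%, close to those of the members. IDs called newGene, which carry no position, were 2 of 150 members against 11.5% of all IDs, and 1 member was on an unplaced contig. By summed FPKM the order was the other way round, with A members at 5.25% and D members at 4.68% of the library on average. The sums weigh the highest members most, and the 2 highest, at means of 2340 and 2203 FPKM, are both A members. The median of the members' mean FPKM was lower for A (246) than for D (263). Over all IDs the A subgenome held 46.9% and the D subgenome 47.7% of total FPKM.

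The ratio of summed A to summed D members differed between labels. It was 1.06 to 1.13 in 3798 controls and 1.08 to 1.09 in JX controls, and 1.11 to 1.20 in 3798 silenced and 1.11 to 1.21 in JX silenced libraries. The silenced and control groups did not overlap in JX, and in 3798 the lowest silenced library (1.11) lay below the highest control (1.13). Without Gh_A05G280600, the most variable member, the ranges were 1.04 to 1.12 for 3798 controls and 1.08 to 1.15 for 3798 silenced libraries. They were 1.075 to 1.084 for JX controls and 1.085 to 1.123 for JX silenced libraries. The differences were thus smaller, and the JX groups still did not overlap, but only narrowly (1.084 against 1.085). These sums still held Gh_A11G322400, another A member. It was at 890 ± 185 FPKM in JX controls and 2184 ± 264 FPKM in JX silenced libraries (SD, n = 4). The ratio without that member as well was not computed, so no shift of the A members in general is read from it.

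**Figure D2:**
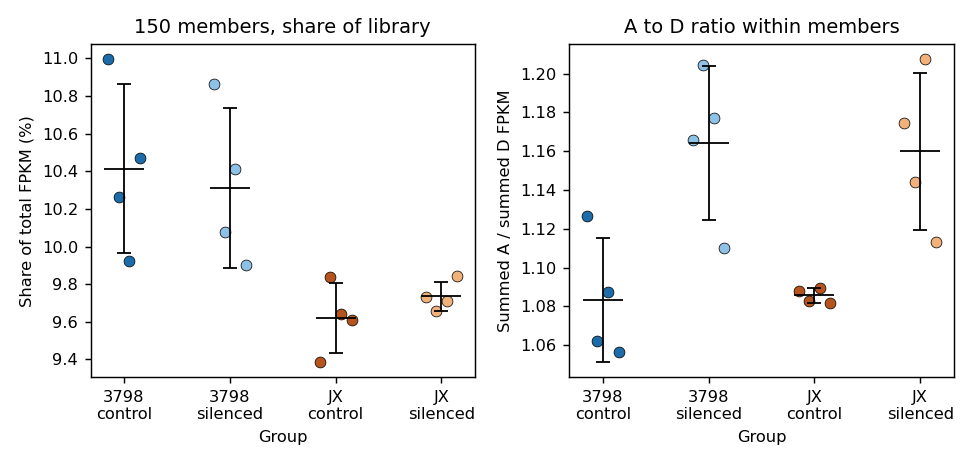
Left, share of total FPKM (%) held by the 150 members, and right, ratio of summed A to summed D member FPKM, per library in each group of 4. Points are libraries, the horizontal mark is the group mean and bars are 1 SD. The 3798 libraries lie at 9.90% to 11% and the JX libraries at 9.39% to 9.84%.

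Every chromosome held members, from 2 on A06 to 9 on D05. Relative to the IDs that each chromosome carries, A02 had the most, 4.62 per 1000 IDs, followed by A01 and D01 at 3.80 per 1000 IDs, and A06 had the fewest, 0.992 per 1000 IDs. Members made up 0.213% of all IDs. With only 2 to 9 members per chromosome, these rates are a description and were not tested. By level the order differed. A01 held 7.41% and D01 7.04% of the members' mean FPKM with 8 members each. D10 and A10 followed with 6.50% and 6.20% and 5 members each, which include Gh_D10G123300 and Gh_A10G150000. D05, with the most members, held 4.28%.

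The highest library was at least 2 times the lowest for 60 of 150 members and at least 4 times for 3, with a median of 1.84-fold. The SD of log2(FPKM + 0.5) over the 16 libraries had a median of 0.272, against 0.260 at ranks 151 to 500, 0.237 at ranks 501 to 1500, 0.225 at ranks 1501 to 5000, 0.217 at ranks 5001 to 15000 and 0.335 below that. The rule limits how far a member can drop in any library, so these values are a description. Gh_Contig00964G000900 was the steadiest, at 149 to 173 FPKM in 3798 controls, 154 to 169 FPKM in 3798 silenced, 178 to 182 FPKM in JX controls and 157 to 176 FPKM in JX silenced libraries, an SD of 0.0967. Gh_A05G280600 was the most variable, with an SD of 1.35. Within groups the median SD was 0.179 for members, 0.163 for tested IDs at ranks 5001 to 15000 and 0.264 for those below rank 15000. The smallest, 0.158, was that of ranks 1501 to 5000, so the members were not the steadiest IDs of the table.

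**Figure D3:**
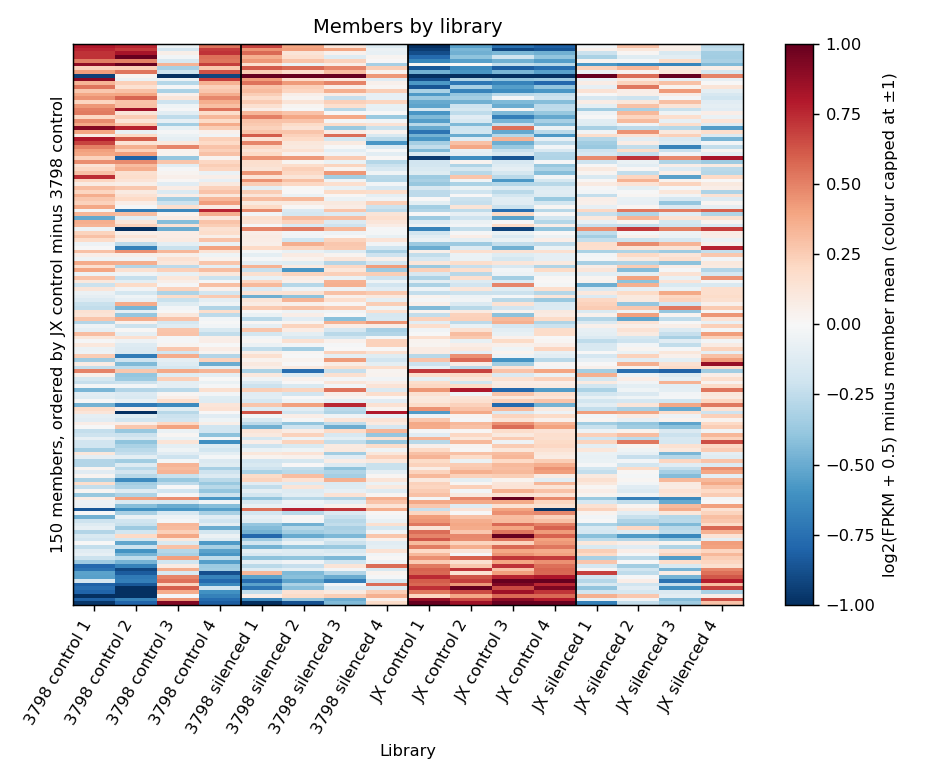
Heat map of the 150 members (rows) in 16 libraries (columns), as log2(FPKM + 0.5) minus the member's mean, with colours capped at 1 in either direction. Rows are ordered by JX control minus 3798 control, so that contrast is built into the order. The JX controls and the 3798 controls 1, 2 and 4 take opposite colours at the top and bottom, while 3798 control 3 and JX silenced 4 take mostly the colours of the JX controls in the lowest rows.

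Between library pairs, the JX controls were closest to each other over the members, with a mean median distance of 0.152 (log2), and farthest from the 3798 controls, at 0.374. The 3798 and JX silenced libraries lay 0.208 apart, against 0.177 among 3798 silenced and 0.192 among JX silenced libraries. Distances between silenced and control libraries were 0.260 in 3798 and 0.314 in JX. Without the 3 libraries that stood apart, the distances were 0.417 between the controls and 0.177 between the silenced libraries of the strains, 0.245 between silenced and control in 3798 and 0.345 in JX. Within groups they were then 0.141 for 3798 controls, 0.131 for 3798 silenced and 0.149 for JX silenced libraries. Leaving out libraries because they lie far from their group makes such distances smaller by construction, so nothing is read from this change.

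In 3798, silencing was compared with control by limma on log2(FPKM + 0.5) over all 55040 IDs at or above 0.5 FPKM in at least 4 libraries, with all 16 libraries in 1 fit. All 150 members passed that filter. At an adjusted p under 0.05, 22 of 150 members (14.7%) changed, where 12.8% of all tested IDs did, so the count is near the background. Of these 11 rose and 11 fell, against 7.51% and 5.28% of all tested IDs, and 3 changed at least 2-fold, all of them upward, against 4.17% of all tested IDs. The split moved with single libraries. It was 12 higher and 5 lower without 3798 control 1, and 6 and 5 without 3798 control 2. Without 3798 control 3 it was 13 and 17, and without 3798 silenced 3 it was 7 and 6. The whole table moved with these libraries too. Of all tested IDs 4133 were higher and 2907 lower with all libraries. The counts were then 3225 and 2239, 2857 and 1885, 5041 and 3573, and 2876 and 1980, in the same order. At an unadjusted p under 0.05 there were 45 members (30.0%), against 26.4%. The groups did not overlap for 24 members (16%), against 16.2%. The median log2 change was 0.04 over the members and 0.01 over all tested IDs, and the median absolute change was 0.19 against 0.20. Without 3798 control 2 the count of members was 11 (7.33%, against 8.62% of all tested IDs), and without 3798 control 3 it was 30 (20%, against 15.7%). Without the 3 libraries that stood apart it was 35 (23.3%, against 16.7%).

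Gh_A02G045800, on chromosome A02, was at 155, 182, 185 and 191 FPKM in 3798 controls 1 to 4 and at 408, 476, 457 and 357 FPKM in 3798 silenced 1 to 4, every silenced library being above every control. It rose 2.37-fold, by 1.24 on the log2 scale (SE 0.213, limma adjusted p = 0.00098). In JX it lay at 141 to 369 FPKM in controls and 298 to 360 FPKM in silenced libraries, which overlap. Gh_D06G173700, on chromosome D06, rose from 187 ± 20.1 to 285 ± 21.1 FPKM (SD, n = 4), by 0.61 on the log2 scale (SE 0.105, limma adjusted p = 0.0010).

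Among the members that fell in 3798, Gh_D10G123300 went from 3207, 3615, 2194 and 2803 FPKM in controls 1 to 4 to 1955, 1656, 1826 and 1380 FPKM in silenced 1 to 4. The groups did not overlap, and the log2 change was -0.78 (SE 0.151, limma adjusted p = 0.0026), or -0.49 with quantile normalization. Gh_D13G203500, on chromosome D13, fell from 242 ± 22.7 to 178 ± 15.9 FPKM (SD, n = 4), with a log2 value of -0.44 for silenced over control (SE 0.0904, limma adjusted p = 0.0042). The neighbour of Gh_D10G123300 on the chromosome, Gh_D10G123500, did not pass in 3798 (log2 change 0.26, limma adjusted p = 0.29).

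In JX, 59 of 150 members (39.3%) changed on silencing by the same test, where 28.3% of all tested IDs did. Of these 29 were higher and 30 lower, against 14.6% and 13.7% of all tested IDs. The count of lower members was 18 without JX silenced 1 (27 higher) and 18 without JX control 3 (22 higher). It was 17 without JX silenced 2 (20 higher), 17 without JX silenced 3 (21 higher) and 36 without JX silenced 4 (27 higher). The whole table moved in the same way. Of all tested IDs 7531 were lower and 8039 higher with all libraries. In the same order the lower counts were then 5694, 5259, 5199, 4791 and 9190, and the higher counts 6411, 6274, 6299, 5939 and 8896. A change of at least 2-fold was called for 6 members, 3 in each direction, against 8.41% of all tested IDs. The groups of 4 did not overlap for 61 members (40.7%), against 29.7% of all tested IDs. The median absolute log2 change was 0.28 over the members and 0.27 over all tested IDs. IDs at ranks 151 to 500 were called at 42.0% and those at ranks 501 to 1500 at 30.0%. The members thus lay below the first of these bands and above the second. Without JX silenced 2 the count of members was 37 (24.7%, against 20.9% of all tested IDs), without JX silenced 3 it was 38 (25.3%, against 19.5%), and without JX silenced 4 it was 63 (42.0%, against 32.9%). Without the 3 libraries that stood apart it was 76 (50.7%, against 38.8%).

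Gh_A05G280600, on chromosome A05, had the largest change of any member. It was at 225, 161, 160 and 187 FPKM in JX controls 1 to 4 and at 1935, 820, 2064 and 785 FPKM in JX silenced 1 to 4. In 3798 it was at 291, 565, 243 and 294 FPKM in controls and 1391, 1516, 1610 and 751 FPKM in silenced libraries. All 8 silenced libraries lay above all 8 controls. The log2 change was 2.80 (SE 0.345, limma adjusted p = 5.1e-05) in JX and 1.94 (SE 0.345, limma adjusted p = 0.0014) in 3798, or 6.97-fold and 3.84-fold. The libraries that stood apart were the lowest of their groups, at 751 FPKM in 3798 silenced 4, 785 FPKM in JX silenced 4 and 243 FPKM in 3798 control 3.

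Gh_A11G322400, among the 10 highest members, was at 729, 913, 776 and 1140 FPKM in JX controls 1 to 4 and at 1956, 2325, 1969 and 2486 FPKM in JX silenced 1 to 4. The groups did not overlap, and it rose 2.48-fold (log2 change 1.31, SE 0.202, limma adjusted p = 0.00032). In 3798 it was at 803 to 1650 FPKM in controls and 1421 to 1926 FPKM in silenced libraries, which overlap, and did not pass (limma adjusted p = 0.10).

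Gh_D06G149900, on chromosome D06, was at 321, 374, 326 and 341 FPKM in JX controls 1 to 4 and at 678, 728, 621 and 600.2 FPKM in JX silenced 1 to 4. It rose 1.92-fold (log2 change 0.94, SE 0.133, limma adjusted p = 0.00015), with no overlap. Gh_A08G277400, on chromosome A08, fell from 238, 214, 226 and 204 FPKM to 129, 126, 119 and 145 FPKM, also with no overlap (log2 change -0.76, SE 0.104, limma adjusted p = 0.00011). In 3798 the same ID was at 145 ± 14.7 FPKM in controls and 139 ± 16.2 FPKM in silenced libraries (SD, n = 4). Gh_A01G213400, on chromosome A01, fell from 1397 ± 198 to 664 ± 116 FPKM (SD, n = 4), with a log2 value of -1.08 for silenced over control (SE 0.164, limma adjusted p = 0.00029). No JX silenced library reached more than 767 FPKM, and no JX control was below 1183 FPKM.

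Averaged over both strains, 49 of 150 members (32.7%) changed, 25 higher and 24 lower, where 28.7% of all tested IDs did, 15.8% higher and 12.9% lower. Without the 3 libraries that stood apart 61 members passed, against 34.8% of all tested IDs. Only Gh_A05G280600 was called with at least a 2-fold change, against 5.11% of all tested IDs. The smallest p among those that rose belonged to Gh_A05G280600 and Gh_D06G149900, and among those that fell to Gh_A01G213400 and Gh_D13G203500. Their log2 changes averaged over strains were 2.37, 0.66, -0.88 and -0.44 (SE 0.244, 0.0943, 0.116 and 0.0640), with limma adjusted p of 3.6e-06, 8.5e-05, 3.8e-05 and 0.00010. Gh_D13G203500 was the most even of these, at -0.44 in 3798 and -0.44 in JX.

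The silencing comparisons of the 2 strains share no library. Of the members, 10 were called in both, which is 45.5% of the 22 called in 3798 and 16.9% of the 59 called in JX. Over all tested IDs 59.4% of those called in 3798 and 26.9% of those called in JX were called in both. All 10 members changed in the same direction in both strains, 5 up and 5 down, and include Gh_A05G280600, Gh_A01G213400, Gh_D10G123300 and Gh_D13G203500. Of all tested IDs 4185 were called in both (7.60%, against 6.67% of members), and only 52 of them in opposite directions. Agreement in direction was therefore not particular to the members. Over all 150 members 58.7% had the same sign in both strains, against 61.4% of all tested IDs. This rested in part on 3798 control 3. Without it 16 members were called in both strains, 3 up, 7 down and 6 in opposite directions, and 49.3% had the same sign. These 16 were 53.3% of the members then called in 3798 and 24.2% of those called in JX, against 52.2% and 25.1% over all tested IDs, of which 54.6% had the same sign. Opposite calls made up 4% of members and 1.37% of all tested IDs.

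The interaction asks whether silencing had an unequal effect in the strains. By limma 0 of 150 members passed, and 2 of all 55040 tested IDs did (0.00363%), 1 in each direction (0.00182%) and 1 at 2-fold or more (0.00182%). At an unadjusted p under 0.05 there were 49 members (32.7%), against 21.7% of all tested IDs, and the smallest adjusted p of a member was 0.079, for Gh_A08G277400. The result depended on 1 library. Without 3798 control 3, 35 of 150 members (23.3%) passed, 19 upward and 16 downward for JX over 3798, where 15.6% of all tested IDs passed. With libraries weighted by their spread, where 3798 control 3 received the lowest weight (0.283), 40 members passed (26.7%, against 18.6% of all tested IDs). Without the 3 libraries that stood apart 45 did (30.0%, against 18.8%). Each of these settings leaves out or down-weights 3798 control 3, which was set apart for lying near the JX controls. Such settings can raise the counts by construction, so nothing is read from the rise.

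The control apices of the strains differed in 71 of 150 members (47.3%), 38 higher and 33 lower in JX, where 29.8% of all tested IDs were called, 17.6% higher and 12.2% lower. The excess of higher members depended on the scaling, with 33 higher and 35 lower at equal total FPKM, 32 and 34 with median-ratio scaling and 36 and 36 with quantile normalization. The background did so too. Of all tested IDs 9700 were higher and 6716 lower as deposited. The counts were 8471 and 7774, 8733 and 7738, and 8263 and 7919 under those settings in the same order. The groups did not overlap for 70 members (46.7%), against 25.1% of all tested IDs. At least a 2-fold difference was seen in 13, of which 9 were higher and 4 lower in JX, against 5.63% of all tested IDs. Without 3798 control 3, 82 members passed, 41 in each direction, against a background of 38.8%, and without the 3 libraries that stood apart 91 did, against 42.0%. The share called was similar down to rank 5000, with 49.1% at ranks 151 to 500, 48.2% at ranks 501 to 1500 and 45.5% at ranks 1501 to 5000, and then fell to 39.6% at ranks 5001 to 15000 and 25.3% below that. The median standard error was 0.132 for the members, 0.123, 0.116, 0.113 and 0.115 in the next 4 bands and 0.185 below rank 15000, and its part in the shares was not tested.

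**Figure D4:**
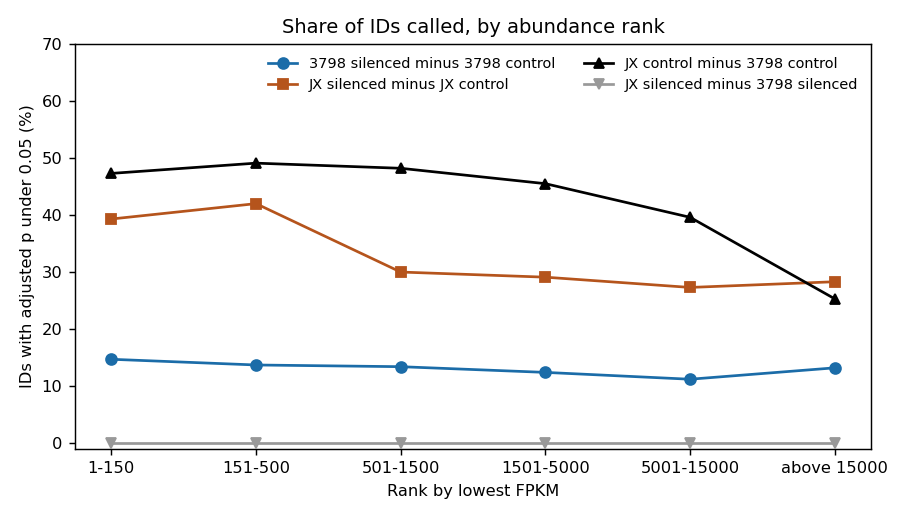
Percent of tested IDs with a limma adjusted p under 0.05 in 6 bands of rank by lowest FPKM, for 4 comparisons. The members are the band of ranks 1 to 150, at 47.3% between controls, 39.3% on silencing in JX, 14.7% on silencing in 3798 and 0 between silenced libraries.

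Gh_D06G006600, on chromosome D06, was higher in JX controls, at 300.2, 280.0, 331 and 345 FPKM, than in 3798 controls, at 195, 182, 219 and 171 FPKM. The groups did not overlap, and the log2 difference was 0.71 (SE 0.102, limma adjusted p = 0.0017). Gh_A08G277400 was higher in JX controls as well, at 221 ± 14.6 FPKM there and 145 ± 14.7 FPKM in 3798 controls (SD, n = 4), or 0.61 on the log2 scale (SE 0.104, limma adjusted p = 0.0023). This comparison and the silencing comparison in JX share the JX controls.

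Among the members lower in JX controls, Gh_A06G142900 was at 659, 927, 679 and 699 FPKM there and at 2160.0, 2084, 1136 and 2067 FPKM in 3798 controls 1 to 4. The log2 difference was -1.30 (SE 0.194, limma adjusted p = 0.0019), and the lowest 3798 value was that of control 3. Gh_D11G190300, on chromosome D11, was at 249, 329, 337 and 330 FPKM in JX controls and at 759.8, 816, 479.7 and 759 FPKM in 3798 controls. On the log2 scale the difference was -1.16 (SE 0.174, limma adjusted p = 0.0019). For both IDs 3798 control 3 was the lowest of its group, yet above every JX control.

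Between the silenced apices of the strains, limma called 0 of 150 members and 0 of all 55040 tested IDs. At an unadjusted p under 0.05 there were 13 members (8.67%), against 7.89% of all tested IDs, and the groups did not overlap for 11 members (7.33%), against 4.45%. The smallest adjusted p of a member was 0.51, for Gh_D10G123300, at 1168 ± 80.3 FPKM in JX and 1704 ± 248 FPKM in 3798 silenced libraries (SD, n = 4). Its log2 difference of -0.54 (SE 0.151) followed one of -0.87 between controls. Whether strain differences were smaller after silencing is the interaction given above.

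Over all these comparisons 50 of 150 members were called in none (33.3%, against 48.5% of all tested IDs), and 79 were called in neither silencing comparison within a strain (52.7%, against 66.5%). By subgenome, 30 of 71 A members (42.3%) and 29 of 76 D members (38.2%) changed on silencing in JX, against 29.0% and 29.2% of tested A and D IDs. In 3798 the counts were 12 (16.9%) and 9 (11.8%), against 12.4% and 13.1%. Between controls they were 30 (42.3%) and 39 (51.3%), against 31.6% and 31.8%. Whether the subgenomes differed in these shares was not tested.

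Many A members had a D member at the matching place of the same-numbered chromosome. The IDs are numbered along each chromosome in steps of 100, and an A and a D member were paired when each was the nearest member to the other in relative place and the places differed by at most 2% of the chromosome's IDs. This rule was chosen after the IDs and values had been seen, the order of the numbers was not checked against a genome, and the pairs are not annotated homoeologs. It gave 33 pairs holding 66 of the 150 members (44.0%). Another 412 combinations of an A and a D member lay on same-numbered chromosomes without being paired. How many pairs the rule gives for members placed at random was not tested, so the count is a description only. In 17 pairs the A member had the higher mean FPKM and in 16 the D member, with a median ratio of 1.28 and a highest ratio of 4.26, for Gh_A06G142900 over Gh_D06G148400.

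Most but not all pairs had similar profiles across libraries. Pearson's r of log2(FPKM + 0.5) over the 16 libraries had a median of 0.84 over the 33 pairs and of 0.02 over all 5363 other combinations of an A and a D member, and it was at least 0.8 in 57.6% of pairs and 4.14% of other combinations. It was below 0.5 in 7 pairs. With group means removed, the medians were 0.77 and 0.06. These values are descriptions over libraries that all pairs share, and reads that match both copies could have been counted for either. In the comparison between controls both members were called in 11 pairs, 10 of them in the same direction, 1 member in 9 pairs and neither in 13. On silencing in JX both were called in 8 pairs, 7 of them in the same direction, 1 member in 14 pairs and neither in 11. On silencing in 3798 both were called in 2 pairs, in the same direction, 1 member in 7 pairs and neither in 24. No such counts are given for the other combinations, so nothing about a link within pairs is read from these joint calls.

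**Figure D5:**
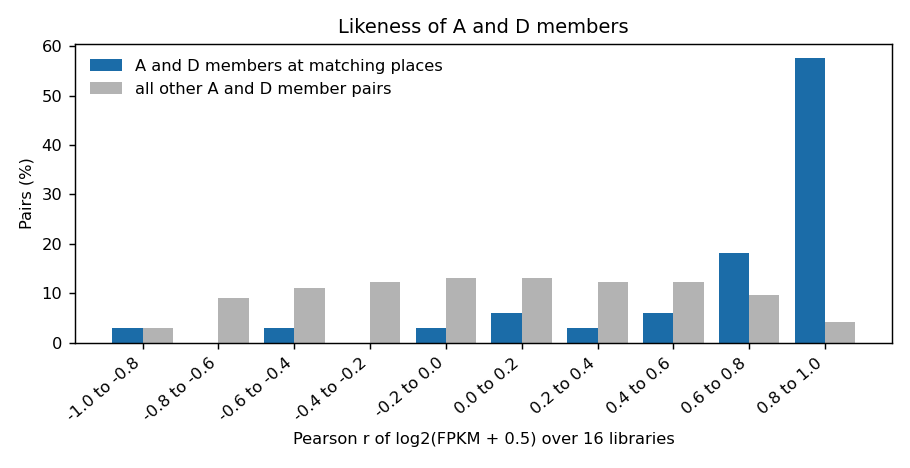
Pearson's r over 16 libraries between an A and a D member, as a percent of the 33 pairs at matching places (blue) and of the 5363 other combinations (grey), in bins of 0.2. In the highest bin, 0.8 to 1.0, lie 57.6% of pairs and 4.14% of other combinations.

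Some pairs are given by name, chosen after their values were seen. Gh_A02G002500 and Gh_D02G003200 had the highest r, 0.99, at 199.6 to 293 and 247 to 379.9 FPKM in 3798 controls and 144 to 189 and 177 to 223 FPKM in JX controls. The lowest of the 3798 values, 199.6 and 247 FPKM, are those of 3798 control 3. Gh_A04G036200 and Gh_D04G040400 had the lowest, -0.80. On silencing in JX the A member rose from 123 to 197 FPKM in controls to 322 to 383 FPKM, and the D member fell from 290.4 to 419 FPKM to 133 to 229 FPKM, with log2 changes of 1.15 and -1.02 that both passed. For neither member did the silenced and control values overlap, so the A and D members of this pair moved in opposite directions.

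Chromosomes A11 and D11 each carried a pair of members 4 places apart whose profiles opposed each other, also singled out after the values were seen. Gh_A11G374700 and Gh_A11G375100 had an r of -0.86, and Gh_D11G382600 and Gh_D11G383000 an r of -0.89. Across the subgenomes, r was 0.96 between the first and 0.94 between the second of each. Gh_A11G374700 was at 288 to 304 FPKM in JX controls and 353 to 526 FPKM in 3798 controls, while Gh_A11G375100 was at 325 to 436 FPKM in JX controls and 140.3 to 339.7 FPKM in 3798 controls. In all, 7 pairs of members lay within 4 places on 1 chromosome, with r from -0.89 to 0.89, so closeness on a chromosome went with no common sign.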

How the data were processed

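The authors deposited 1 table of FPKM for 70422 IDs in 16 libraries. The unit comes from the table's name and its values, and the sources used here name no aligner, counter, build, annotation or strand setting. How reads matching both an A and a D copy were counted is therefore unknown. FPKM are relative within a library, 0 pairs of libraries were identical, and no column was left unused.

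FPKM are not counts, so limma 3.58.1 (R 4.3.3) was fitted to log2(FPKM + 0.5) of 55040 IDs at or above 0.5 FPKM in at least 4 libraries, with 1 mean per group and a robust, trended prior variance. Two-sided p-values were adjusted by Benjamini-Hochberg over all tested IDs, with a threshold of 0.05. Relative depth is the most frequent ratio between libraries among IDs under 0.5 FPKM in every library, which 29 to 57 IDs per library shared, so it is approximate. Python 3.11.15, numpy 2.4.6, pandas 2.3.3 and matplotlib 3.10.9 were used. Members and settings were chosen with earlier results of these data known.

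Named were the 10 highest members, 2 IDs on each side of the border, 2 IDs left out, the steadiest and most variable member, and per comparison the 2 rising and 2 falling with the smallest p among those passing without overlap of the groups (passing alone for the mean of strains). Planned functional lists and markers need gene names and were not used.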

Additional observations from a re-analysis of the deposited data

Results flagged for a closer look

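Of 108 groups of 4 values checked, 15 held a library far from the other 3. Chance flags about 5% of independent, unselected groups. The IDs checked were picked for their level, change or spread and share the same libraries, so no excess is read from this count. Of the 15, 6 are values of 3798 control 3. It was low for Gh_A06G142900 (1136 FPKM, next 2067), Gh_D10G153500 (143, next 195), Gh_D06G149900 (461, next 676) and Gh_D11G190300 (479.7, next 759), and high for Gh_A01G183900 (1096, next 997) and Gh_Contig00964G000900 (173, next 152).

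In the other 3798 libraries, Gh_A05G280600 was at 565 FPKM in control 2 (next 294), Gh_Contig00768G000400 at 759 FPKM in control 1 (next 497) and at 240.4 FPKM in silenced 2 (next 362), Gh_A06G142900 at 1221 FPKM in silenced 4 (next 1676) and Gh_A02G158200 at 860.1 FPKM in silenced 2 (next 819.6).

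In JX controls, Gh_A06G142900 was at 927 FPKM in control 2 (next 699), Gh_A01G255800 at 185 FPKM in control 4 (next 207), Gh_D13G203500 at 204 FPKM in control 1 (next 217) and Gh_D11G190300 at 249 FPKM in control 1 (next 329). No JX silenced library stood apart in this way, and the causes were not tested.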

How the results depend on the processing

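All 428 alternative fits of the 16 named changes kept their direction and stayed past the threshold. Counts of members called moved as follows. Leaving out 1 library gave 11 to 30 members on silencing in 3798 (13 without 3798 silenced 3) and 37 to 66 in JX (38 without JX silenced 3). It gave 41 to 54 for the mean of strains, 57 to 82 between controls and 0 between silenced libraries. The whole table moved too. Of all tested IDs these fits called 8.62% to 15.7%, 19.5% to 32.9%, 24.6% to 32%, 19.3% to 38.8% and 0 to 0.00727%, in that order. For the interaction, leaving out 1 library gave 0 to 35 members. The 35 came without 3798 control 3 (23.3%, against 15.6% of all tested IDs), and 0 without any other library. On silencing in 3798, a fit to the compared groups only gave 10 members (6.67%, against 8.85% of all tested IDs), library weights 34 (22.7%, against 19.4%), and leaving out 3798 control 3, 3798 silenced 4 and JX silenced 4 together 35 (23.3%, against 16.7%). The interaction gave 40 with library weights and 45 without those 3 libraries. Asking for a log2 change of at least 1 as well left 3 (3798), 6 (JX), 1 (mean) and 13 (controls). No other setting moved the total of members called by over 1.5 times. The members lower on silencing in 3798 went from 11 to 5 without 3798 control 1 or control 2, and to 6 without 3798 silenced 3. In JX they went from 30 to 18 without JX silenced 1 or JX control 3, and to 17 without JX silenced 2 or JX silenced 3. The lower IDs of the whole table became fewer in each of these fits as well, as given above. Among the 16 named changes, only that of Gh_D10G123300 in 3798 moved by over 1.5 times, from -0.78 to -0.49 (log2) with quantile normalization. The members' share of total FPKM, in the order 3798 control, 3798 silenced, JX control and JX silenced, was 11.3%, 10.9%, 9.87% and 10.4% for the 150 IDs highest by mean, 11.1%, 10.9%, 9.85% and 10.3% for those highest by median, and 10.9%, 10.8%, 9.99999% and 10.2% with newGene IDs out of the total. Leaving out 1 library gave 10.2% to 10.6%, 10.1% to 10.5%, 9.54% to 9.70% and 9.70% to 9.76%. The cause of these shifts was not tested. A replicate block gave 18 members in 3798, 58 in JX, 47 for the mean, 0 for the interaction, 70 between controls and 0 between silenced libraries. Of all tested IDs it called 12.1%, 27%, 27.7%, 0, 28.3% and 0 in the same order. Deviations of same-numbered libraries over all tested IDs had r from -0.23 to 0.19 between 3798 control and silenced, -0.03 to 0.13 in JX and -0.08 to 0.11 between controls. Between the silenced groups r was 0.09, 0.05, 0.25 and 0.36, with at most 0.09 for other numbers, and 3 of 4 libraries matched best with their own number, which is a hint from the data only. Since not every pair was above 0.1, the numbers were not taken to pair the samples. Scaling moved the median difference of all tested IDs by less than 0.1 (log2). Absolute depth is unknown, so no counting error can be given.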
